A study of Mus musculus with 4 samples.

Results

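The E proteins and the basic helix-loop-helix (bHLH) partners opposed by Id proteins were 9 genes, of 18193 that the platform annotation names on the array, and were read by 22 of its 45101 probe sets. They were every probe set whose gene symbol in the platform annotation was Tcf3, Tcf4, Tcf12, Neurog2, Neurog3, Tal1, Lyl1, Msc or Hes6. That rule used gene symbols and no measured value, but the 9 genes were chosen with earlier results of these data known. All 22 carried an Entrez identifier that gives the same symbol in RefSeq, so Tcf3 here is the E2A gene and not the HMG factor Tcf7l1, which once bore that name. RNA came from E14Tg2A.4, an Hprt-deficient line of mouse embryonic stem cells. Cells of 2 samples were exposed for 1 h to bone morphogenetic protein 2 (BMP-2, 25 ng/ml), and the other 2 samples were untreated controls. Each sample was read on its own one-colour Affymetrix array. The labels do not name separate cultures within a group, so the spread behind every p-value may be technical.

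E proteins are class I bHLH transcription factors. They bind DNA as dimers with one another or with tissue-restricted bHLH factors, at the E-box letters CANNTG. Id proteins have the helix-loop-helix but no basic region, so an E protein paired with an Id protein does not bind DNA. BMP signals raise Id transcripts through SMAD1 and SMAD5, and in mouse embryonic stem cells Id proteins are known to hold back neural differentiation in the presence of LIF. The comparison asked whether transcripts of the factors that Id proteins oppose differed after 1 h of BMP-2, and at what signal they were read in untreated cells.

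The RefSeq table of GRCm38.p6 held windows of 300 bases, from 250 before to 50 after an annotated start, for 7 of the 9 genes, with Tcf4 and Msc not matched. CANNTG was found in 9 of their 11 windows, and 72.3% of all 32851 windows hold it. GGCGCC, a GC-rich sequence bound by SMAD1 and SMAD5, was found in 0 of the 11, in 2 of the 3 windows of Id genes (Id2 and Id4), and in 11.9% of all windows. Id1 had no window, and the window of Id3 held no GGCGCC. Both strands were searched, and the motifs can share at most 1 base. The windows of Tcf3, an E protein, and Hes6, a Hes family member, are shown in the 5′ to 3′ direction as an example of each class, with E-boxes in capitals.
Tcf3, chr10:80433586-80433885, minus strand: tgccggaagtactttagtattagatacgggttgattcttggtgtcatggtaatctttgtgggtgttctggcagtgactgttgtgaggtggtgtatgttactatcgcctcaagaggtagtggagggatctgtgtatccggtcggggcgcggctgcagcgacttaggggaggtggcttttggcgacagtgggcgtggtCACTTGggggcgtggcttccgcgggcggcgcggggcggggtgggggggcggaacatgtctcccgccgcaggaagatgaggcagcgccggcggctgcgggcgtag
Hes6, chr1:91413173-91413472, minus strand: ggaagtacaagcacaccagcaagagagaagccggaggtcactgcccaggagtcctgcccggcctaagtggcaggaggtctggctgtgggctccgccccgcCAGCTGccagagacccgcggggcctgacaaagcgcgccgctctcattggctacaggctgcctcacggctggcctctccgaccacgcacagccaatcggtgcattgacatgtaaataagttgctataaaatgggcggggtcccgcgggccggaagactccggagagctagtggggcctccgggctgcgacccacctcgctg
The Tcf3 window holds the E-box CACTTG, and the Hes6 window shown holds the palindrome CAGCTG. The table gives Hes6 a second window, at another annotated start, with 3 E-boxes. A match describes letters and not an occupied site.

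The deposited signals are linear MAS5 values for each probe set, so the level of one probe set cannot be set against that of another as an amount of RNA. Median signals over all probe sets other than controls ran from 81.8 to 94.9 on the 4 arrays, and log2 signals of tested probe sets correlated at 0.985 within each group. Treated against untreated arrays gave 0.984 to 0.987, so the within-group value lay inside the range across groups. Untreated replicate 2 stood apart in its 18S ribosomal RNA controls, which read 3.94 to 6.11 times the highest of the other arrays. All 8 embryonic stem cell markers, Pou5f1, Nanog and Sox2 among them, were above the limit for testing, with a summed signal of 90745 and 86444 on the treated arrays and 90979.5 and 85599 on the untreated arrays. Of the fibroblast markers that would show feeder cells, 2 of 8 (Col1a2 and Thy1) were above that limit. Over the whole array 12976 of 18193 genes had a probe set above it, so a signal above the limit is not a detection call. With 2 arrays a group, that number limits how precise any value can be.

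Differences were tested with limma on log2 signals, over the 27022 probe sets whose mean log2 signal was above the 40th percentile, a signal of 53.0. Of the 22 probe sets, 16 were tested, from 7 genes, and 6 were too dim. None of the 16 passed an adjusted p of 0.05 (0 probe sets, with 1, that of Msc, at an unadjusted p under 0.05), and every adjusted p was 1.00. Over all tested probe sets 5 passed, or 0.0185%, and 3.07% had an unadjusted p under 0.05. Of the 16, 9 read higher with BMP-2 and 7 lower, where 52.2% of all tested probe sets read higher, with a median difference of 0.05 log2, against 0.01 log2 over all tested probe sets. The groups did not overlap for 7 of the 16, 3 higher and 4 lower, against a background of 28.4% (15.9% higher and 12.5% lower), and probe sets of a gene share its transcript. One of the 16, that of Msc, differed by at least 1.5-fold, against 3.62% of all tested probe sets.

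**Figure D1:**
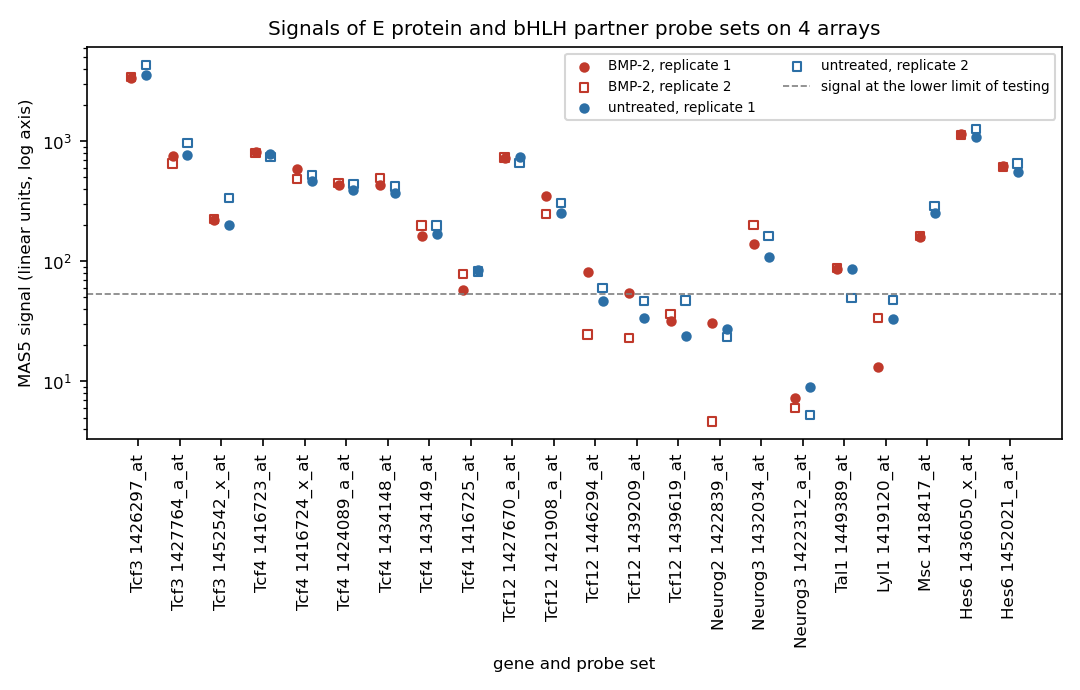
MAS5 signal on a log axis for each of the 22 probe sets, with BMP-2 arrays in red to the left and untreated arrays in blue to the right of each position. The dashed line marks the signal of 53.0 above which the mean had to lie for testing. Msc has both treated arrays at 160 and 162, below both untreated arrays at 251 and 290.

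Id1, Id2 and Id3 rose in the same arrays, which sets the scale for what follows. On their brightest probe sets the log2 differences were 1.65, 1.76 and 1.73, and the lowest bound of their 95% intervals was 1.48. Dimmer probe sets of Id2 gave 1.15 and 0.99 log2, with lower bounds of 0.90 and 0.27. The 11 tested E protein probe sets lay between -0.32 and 0.23 log2. The highest upper bound among their intervals was 0.56 and the lowest lower bound -1.06, so falls were bounded less closely than rises. On the brightest probe set of each E protein gene the intervals ran from -0.43 at the lowest to 0.33 at the highest. A rise of an E protein transcript above 0.56 log2, and so one as large as that of Id1, lay outside all of these intervals. Smaller rises lay within at least 1 of them.

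Tcf3 encodes the E proteins E12 and E47, which arise by alternative splicing of the bHLH exon. Its probe set 1426297_at read 3390 and 3421 on the treated arrays, against 3579 and 4329 on the untreated arrays. Both treated values were below both untreated ones, but untreated replicate 2 stood apart from the other 3 arrays. The difference was -0.21 ± 0.10 log2 (SE, 95% interval -0.43 to 0.01, limma adjusted p = 1.00). A second Tcf3 probe set, 1427764_a_at, read 753 and 653 with BMP-2 and 768 and 963 without, again without overlap and at -0.29 log2 (interval -0.61 to 0.02). The third, 1452542_x_at, read 219 and 224 in treated cells and 201 and 338 in untreated cells, so the groups overlapped, at -0.24 log2 (interval -0.77 to 0.30). All 3 thus read lower with BMP-2 and none passed. Without untreated replicate 2, the array with the high 18S controls, the differences of these probe sets were -0.07, -0.13 and 0.14 log2. The part of the 18S signal in the Tcf3 differences was not tested.

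Tcf4 encodes the E protein E2-2, known for its role in plasmacytoid dendritic cells and in the nervous system. All 6 of its probe sets were tested. The brightest, 1416723_at, read 811 and 803 on the treated arrays and 790 and 741 on the untreated arrays, a narrow gap with the treated arrays above. Its difference was 0.08 ± 0.11 log2 (SE, interval -0.18 to 0.33, limma adjusted p = 1.00). Probe set 1434148_at also had both treated arrays above, at 431 and 497 with BMP-2 against 372 and 421 without, and gave 0.23 log2 (interval -0.11 to 0.56). The dimmest, 1416725_at, lay the other way without overlap, at 57.3 and 78.4 in treated cells and 84.6 and 82.5 in untreated cells (-0.32 log2, interval -1.06 to 0.43). The other 3 probe sets overlapped between the groups and lay at 0.11, 0.09 and -0.02 log2. Probe sets of Tcf4 therefore did not share a direction, and the mean of all 6 gave 0.03 log2 (interval -0.28 to 0.33).

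Tcf12 encodes HEB, the third E protein, which is needed with E2A for T cell development. Of its 5 probe sets 2 were tested. Probe set 1427670_a_at read 727 and 731 with BMP-2 and 742 and 660 without, and 1421908_a_at read 349 and 247 with BMP-2 and 250 and 307 without. The groups overlapped on both, at 0.06 ± 0.12 and 0.08 ± 0.21 log2 (SE, limma adjusted p = 1.00 for both). The other 3 Tcf12 probe sets had signals from 22.9 to 81.4 on single arrays and means below the limit. They include 1446294_at, the closest of the 22 below the limit, with a mean of 5.61 log2 against the limit of 5.73, while the closest above was 1416725_at of Tcf4 at 6.23. On 1446294_at the treated arrays read 81.4 and 24.6 and the untreated arrays 46.7 and 60.2, so treated values lay on both sides of the untreated ones.

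**Figure D2:**
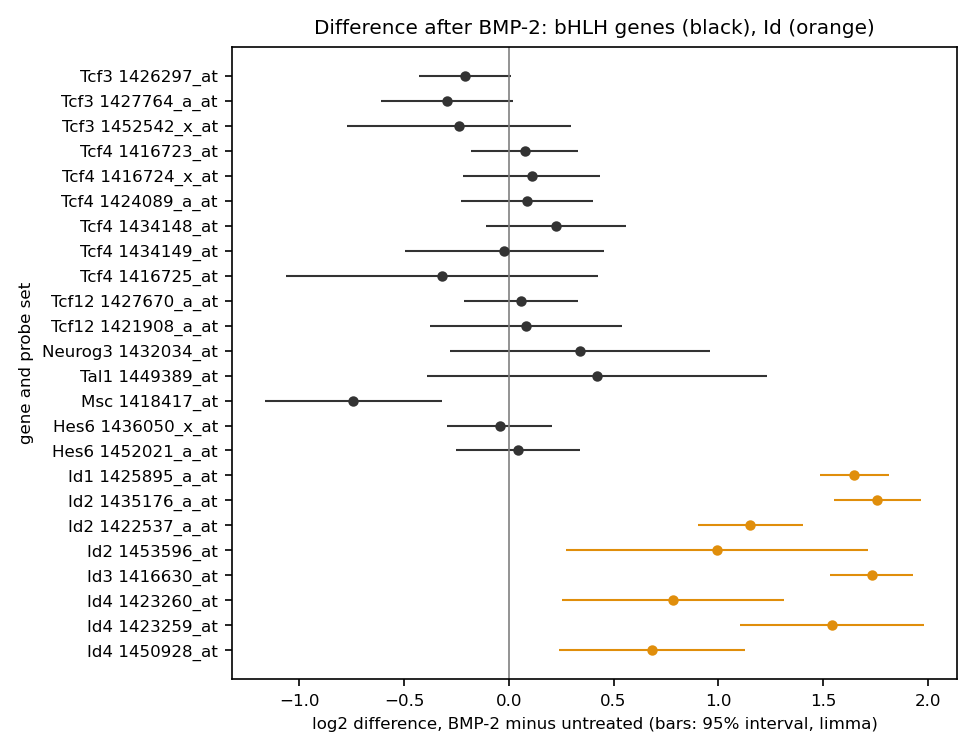
Log2 difference of BMP-2 minus untreated cells (horizontal axis) with its 95% interval from limma for the 16 tested probe sets, in black, and for the 8 probe sets of Id1 to Id4, in orange. The intervals of the E proteins, Hes6, Neurog3 and Tal1 include 0 and that of Msc, from -1.16 to -0.32, does not, before any adjustment over the probe sets tested.

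Msc encodes musculin, a bHLH repressor that pairs with E proteins and is known for blocking MyoD in muscle precursors. Its single probe set, 1418417_at, read 160 and 162 in the treated samples, against 251 and 290 in the untreated samples. Both treated arrays lay well below both untreated arrays, and the treated values lay close together. The means were 161 ± 1.19 with BMP-2 and 270 ± 27.5 without (SD, n = 2 each), a 1.67-fold lower signal with an unadjusted interval of 1.25 to 2.24-fold. The difference of -0.74 ± 0.19 log2 (SE) did not pass (limma adjusted p = 1.00). The lowest limma adjusted p over the alternatives, 0.113, came from centring on the median of all probe sets, chosen after seeing the data. The planned median centring gave 0.417. By unadjusted p in the main fit Msc ranked 63rd of all tested probe sets. Leaving out each array in turn gave -0.85 to -0.64 log2, the smallest of these without untreated replicate 2. The summed signal of the 7 muscle markers, of which Des was the brightest, was 509.6 and 621 on the treated arrays and 382 and 621 on the untreated arrays. Of these 7, 4 (Des, Myod1, Acta1 and Pax7) were above the limit for testing, and Myf5, Myog and Pax3 were below it. Of all 18193 genes 12976 were above it. Myod1 read 73 and 108 on the treated arrays and 74 and 95 on the untreated arrays. The part of the muscle markers in the Msc difference was not tested.

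The probe sets whose 4 signals moved most like that of Msc, by the Euclidean distance between log2 signals centred on their own means, were those of Them6, the long noncoding RNA gene Morrbid and Ikzf4, which encodes an Ikaros family zinc finger protein. Their differences were -0.75, -0.79 and -0.82 log2, and none passed (limma adjusted p = 0.837 for Them6 and 1.00 for the others). With only 4 arrays this is a description, and 102 tested probe sets (0.377%), these 3 included, correlated with Msc above 0.99.

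Neurog3, which specifies endocrine cells of the pancreas and gut, had 1 tested probe set. It read 141 and 200 on the treated arrays and 108 and 163 on the untreated arrays, with overlap, at 0.34 ± 0.28 log2 (SE, limma adjusted p = 1.00). In each group replicate 2 was the higher array, and leaving out each array gave 0.04 to 0.64 log2. The other Neurog3 probe set, 1422312_a_at, was the dimmest of the 22 on average and read 7.29 and 6.03 with BMP-2 and 8.96 and 5.25 without. Of 5 pancreatic endocrine markers on the array 1, Chga, was above the limit, against 12976 of all 18193 genes. The proneural factor Neurog2, which drives neurogenesis together with E proteins, read 30.8 and 4.64 in treated cells and 27.5 and 23.3 in untreated cells, below the limit for testing.

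Tal1 and Lyl1 are related haematopoietic bHLH factors that bind DNA with E proteins and with the bridging proteins LMO2 and LDB1. Tal1 read 86.5 and 87.4 on the treated arrays and 85.6 and 49.2 on the untreated arrays. One untreated array lay almost level with the treated ones and the other, replicate 2, below the limiting signal. The difference was 0.42 ± 0.36 log2 (SE, limma adjusted p = 1.00), and 0.02 log2 without untreated replicate 2. Lyl1 was not tested, with 13.3 and 33.8 with BMP-2 and 33.0 and 47.5 without. Of the haematopoietic and endothelial markers 6 of 9 (Gata1, Spi1, Runx1, Kdr, Pecam1 and Cd34) were above the limit. Ptprc, Hba-a1 and Hbb-y were below it on average. Over all genes 12976 of 18193 were above the limit, so these counts do not show that the markers were expressed.

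Hes6 encodes a Hes family protein that inhibits Hes1 and is known for promoting neuronal differentiation. Its probe set 1436050_x_at read 1160 and 1122 in the treated samples and 1093 and 1265 in the untreated samples. Its other probe set, 1452021_a_at, read 627 and 613 with BMP-2 and 553 and 654 without. On both, the treated values fell between the untreated ones. The differences were -0.04 ± 0.11 and 0.04 ± 0.13 log2 (SE, limma adjusted p = 1.00 for both), and the mean of both gave 0.00 log2 with an interval of -0.24 to 0.24. Of the 16 tested probe sets, 3 (1 each of Tcf3, Tcf4 and Hes6) carry the suffix _x_at, with which Affymetrix marks sets whose probes may also match other transcripts, so their values are less certain.

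**Figure D3:**
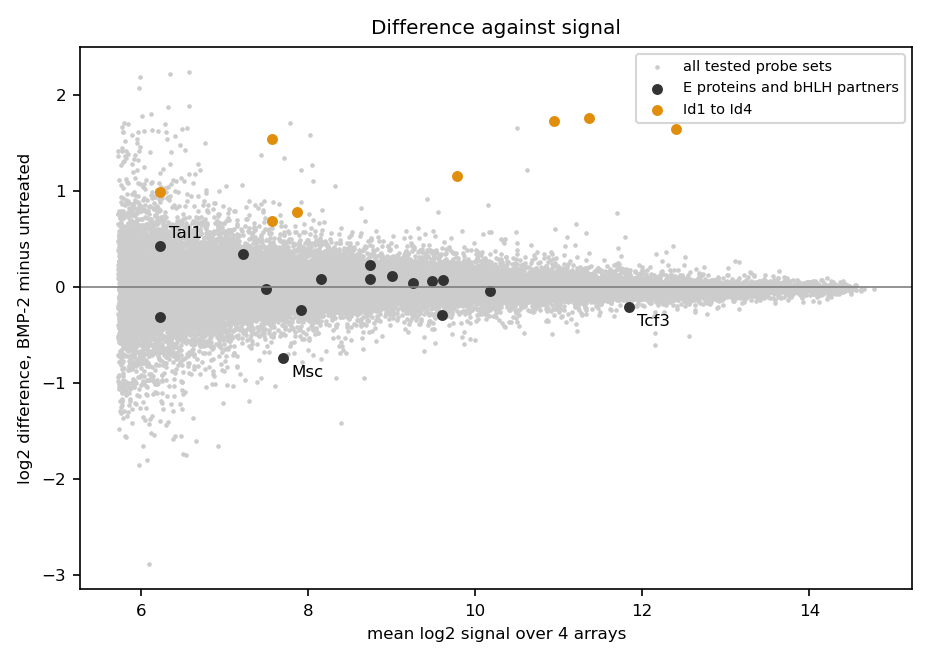
Log2 difference of BMP-2 minus untreated cells against the mean log2 signal for the 27022 tested probe sets (grey), the 16 E protein and bHLH partner probe sets (black) and Id1 to Id4 (orange). Msc at -0.74 lies at the lower edge of probe sets of like signal, and the Id probe sets lie above 0.6.

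Genes around these factors were followed on their brightest tested probe set, in lists chosen with earlier results of these data known. Of 12976 genes tested this way 0.0308% passed, 53% read higher with BMP-2 and the median difference was 0.01 log2. Of the 4 Id genes 3 rose and Id4 did not pass. Its brightest probe set gave 0.78 log2 and another 1.54 (limma adjusted p = 1.00 and 0.056). The remaining Id4 probe set gave 0.68 log2 and did not pass either. Outside the Id genes no gene of these lists passed.

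Of 16 proneural and neuronal bHLH genes 4 were tested, all 4 read lower with BMP-2 and none passed. Neurod1, a neuronal and endocrine differentiation factor, read 1361 and 1303 in treated cells and 1731 and 1532 in untreated cells (-0.29 ± 0.10 log2, SE). Atoh1, which specifies hair cells and cerebellar granule neurons, read 48.6 and 70.9 with BMP-2 and 125 and 116 without (-1.04 ± 0.32 log2, SE), with the treated mean near the lower limit of testing. For both genes the treated arrays lay below the untreated ones, as on 12.5% of all tested probe sets, and both were named for their small p. Neurod2 overlapped between the groups at -0.37 log2, and without untreated replicate 2 it lay at 0.13 log2, the opposite sign. The neural markers, a list that also holds Neurod1, had a summed signal of 3352 and 3357 on the treated arrays. On the untreated arrays it was 3702 and 4039. Of the 7 on the array, 5 (Neurod1, Tubb3, Pax6, Nes and Map2) were above the limit, and Sox1 and Dcx were below it. The share over all genes was 12976 of 18193. The part of these markers in the differences above was not tested.

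Of 12 tested mesodermal, myogenic and other tissue bHLH genes 6 read higher and 6 lower, with Mesp1 at 0.55, Ascl2 at -0.30 and Hand1 at -0.23 log2. Of 6 tested Hes and Hey genes, which encode repressors downstream of Notch or related to them, 3 read higher and 3 lower, with Heyl at -0.46, Bhlhe40 at 0.38 and Hey1 at 0.26 log2. Without untreated replicate 2, Heyl lay at -0.086 log2, and Bhlhe40 turned its sign, to -0.17 log2. The medians of both lists were 0.03 and 0.02 log2. No direction was shared within either list.

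All 18 cofactors of E protein complexes were tested, and 14 read higher with BMP-2 against 53% of all genes, with a median of 0.06 log2 and none passing. Lmo2, which bridges TAL1 and E proteins to GATA factors, read 135 and 189 in treated cells and 109 and 23.9 in untreated cells (1.65 ± 0.58 log2, SE). Untreated replicate 2 was its lowest array, and without it the difference was 0.56 log2. Ssbp3, a partner of LDB1, read 1271 and 1433 with BMP-2 and 1104 and 1088 without (0.30 log2), and Ep300, a histone acetyltransferase recruited by E proteins, read 1599 and 1539 with BMP-2 and 1364 and 1303 without (0.23 log2). On both genes the treated arrays lay above the untreated ones, as on 15.9% of all tested probe sets, and both were named for their small p.

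Of 14 tested genes known to be regulated by E proteins, mostly from lymphocytes, 8 read higher and 6 lower, and their median was 0.01 log2. The smallest p-values were those of Socs3 at -0.27, Socs1 at 0.78 and Notch1 at -0.30 log2, and the untreated mean of Socs1 was below the limiting signal of 53.0. Among 23 bHLH leucine zipper and bHLH-PAS factors 9 read higher and 14 lower, with Max, the partner of MYC, at 0.44, Usf1 at -0.19 and Tfeb at -0.14 log2. Max read 757 and 786 with BMP-2 and 628 and 518 without and did not pass. The HMG factor Tcf7l1 read 2109 and 1994 in treated cells and 2012 and 1987 in untreated cells, at 0.04 log2, and Lef1 and Tcf7l2 lay at 0.27 and 0.10 log2.

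**Figure D4:**
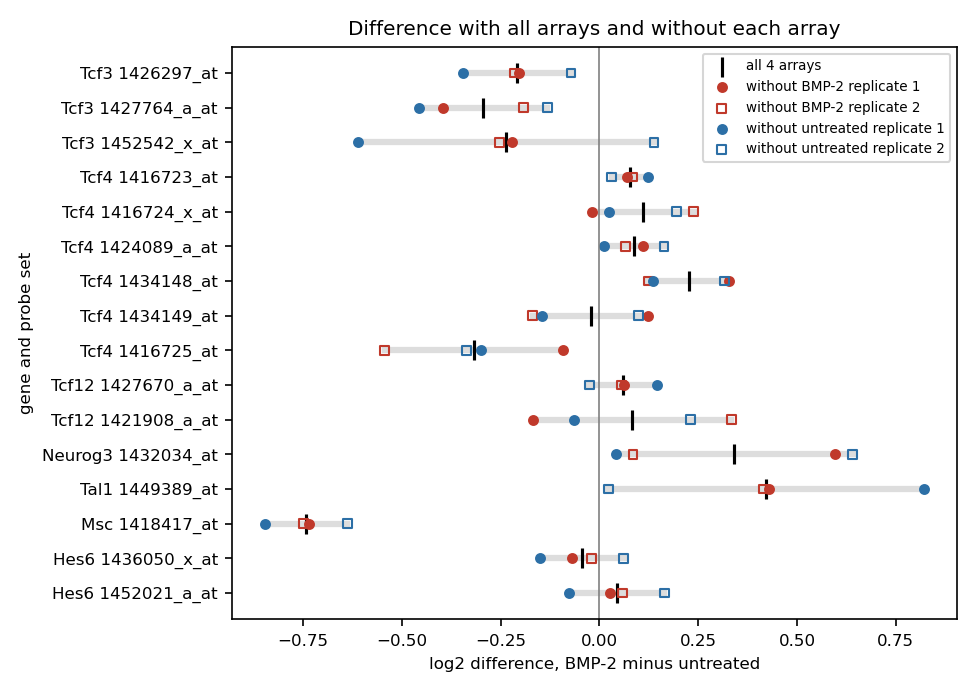
Log2 difference of BMP-2 minus untreated cells for the 16 tested probe sets with all 4 arrays (black bar) and without each array (red for a treated array left out, blue for an untreated one). Msc stays between -0.85 and -0.64, while the sign turned for 7 of the 16 probe sets.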

How the data were processed

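Biotin-labelled cRNA from total RNA of 4 samples was hybridised to Affymetrix arrays, following the labels. The deposited intensity values are linear MAS5 signals, as the submitters' processing notes give it, and the sources used here do not give its version. Their 2%-trimmed mean was 500.0 on every array. No detection calls were used.

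Log2 of the signal was taken without a pseudocount. Array medians lay within 0.21 log2, under a limit of 0.3, and no normalization was added. After leaving out 64 control probe sets, 27022 of 45037 were tested, those with a mean above the 40th percentile. Symbols came from the platform annotation. The groups were compared two-sided in limma 3.58.1 (R 4.3.3, lmFit, then eBayes with an intensity trend, no replicate block, 2 residual and 7.98 prior degrees of freedom), with Benjamini-Hochberg adjustment over all tested probe sets, and the code was tested on simulated data. In the simulated data, with the spread as fitted, 14% of changes of 0.5 log2 and 46.4% of changes of 1 log2 passed. Changes of these sizes could thus be missed. A permutation of 2 against 2 arrays cannot pass 0.05, and none was run. The members and lists were chosen with earlier results of these data known. Every member is reported. Each other list is given by its passing genes and up to 3 with the smallest p, and Msc is set beside the 3 nearest profiles. The dimmer probe sets of Id2 and Id4 were added, and the markers named as examples chosen, after their values were seen. Alternatives changed the normalization (quantile, median centring), the pseudocount (25.4), the filter (none, or the 60th percentile), the trend, the replicate block, the arrays included, the threshold (0.1) and the choice of probe set (a mean per gene).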

Additional observations from a re-analysis of the deposited data

How the results depend on the processing

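No member probe set passed under any alternative run, nor did the mean of a member gene's probe sets, and of 190 values of the 16 probe sets under the alternatives 181 kept their direction. The exceptions all came from leaving out 1 array, which leaves a group with a lone array assumed to vary like the other group, and the cause was not tested. The ranges without each array were -0.61 to 0.14 log2 for Tcf3 1452542_x_at, -0.019 to 0.24 for Tcf4 1416724_x_at, -0.17 to 0.12 for Tcf4 1434149_at, -0.026 to 0.14 for Tcf12 1427670_a_at, -0.17 to 0.33 for Tcf12 1421908_a_at, -0.15 to 0.061 for Hes6 1436050_x_at and -0.078 to 0.16 for Hes6 1452021_a_at. The median over the 16 ran from -0.071 (without untreated replicate 1) to 0.080 in these fits. The count of probe sets called over the whole array was 5 and became 17 with median centring (12 higher, 5 lower), 116 with centring on the median of all probe sets, dim ones included (72 higher, 44 lower, an alternative chosen after seeing the data), 8 with the filter at the 60th percentile, 0 without the intensity trend in limma (1023 at an unadjusted p under 0.05), 11 at an adjusted p under 0.1, and 16 to 141 without 1 array. Replicate numbers are shared between the groups, but the labels give them no common source. Deviations of same-numbered arrays correlated at 0.15, and with the replicate block 11 probe sets were called, none of them a member. Signals near 53.0 are noisy on a log scale, which limits what can be said of Tal1, the dimmest Tcf4 probe set and the 6 untested probe sets.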
